A study of Mus musculus with 9 samples.

Results

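The 10 genes described here carry a cell through the first gap phase (G1) of its cycle into DNA synthesis. They are the D cyclins Ccnd1, Ccnd2 and Ccnd3, the E cyclins Ccne1 and Ccne2, the cyclin-dependent kinases Cdk4, Cdk6 and Cdk2, the phosphatase Cdc25a and the transcription factor E2f1. These 10 of 27179 genes in the count table were chosen by name, for their role in G1, and not by a rule on their values. Earlier results of these data were known when they were chosen. All 10 had enough counts to be tested. They were measured in pneumospheres, which are floating spheres grown from dissociated lungs of C57/B6 mouse embryos at embryonic day 11.5. The lung cells were freed with trypsin and left for an hour on ordinary plastic, to which mesenchymal cells stick. The cells that stayed in suspension were cultured on ultra-low attachment plates with bFGF, EGF, heparin, B27 and ITS, and were passaged on days 3 and 7. The 3 groups are spheres of day 3, day 7 and day 10, with 3 poly(A) RNA libraries each. No group had a mutation or a treatment of its own, so every comparison is between times of culture.

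Growth factors such as EGF and bFGF raise D cyclins in many cells. A D cyclin joins Cdk4 or Cdk6 and starts to phosphorylate the retinoblastoma protein, which until then holds E2F factors silent on their target genes. Freed E2F factors switch on the E cyclins, E2f1 itself and the enzymes of DNA replication, and an E cyclin with Cdk2 completes the phosphorylation. Cdc25a removes the phosphates that keep Cdk2 inactive. In the embryonic lung this machinery serves both the dividing epithelial tips and the mesenchyme around them.

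Libraries held between 20716878 and 30466712 counts. The summed level of 10 epithelial markers was between 0.195 and 1.90 CPM (counts scaled to library size) in every library, and Nkx2-1, Foxa1 and Shh were at 0 counts in all 9, which allows up to 0.0985 to 0.145 CPM for each (3 counts). The 11 mesenchymal markers summed to 14601 to 16365 CPM on day 3, 28026 to 33609 on day 7 and 42344 to 48151 on day 10. The collagens Col1a1, Col1a2 and Col3a1 made up most of that sum, and the lung mesenchyme factors Tbx4, Tbx5 and Tcf21 of the same list fell, Tbx5 to 6.96 CPM on day 10 against 48.7 CPM on day 3. The spheres as sequenced thus carried almost no transcript of the epithelium for which the culture was said to be enriched. Day 3 replicate 2 differed from the other day 3 libraries by a chi-square per degree of freedom of 127 and 109, where those other libraries differed from each other by 8.05. Whether libraries of the same day stem from different cultures is not stated, so the p-values measure the spread between these samples, which may be technical. In RNA from whole spheres, fewer cells of a type and less RNA per cell cannot be told apart.

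Across the 3 days, 8 of the 10 G1 genes differed in edgeR's quasi-likelihood test at an adjusted p under 0.05, beside 53.5% of all 14940 genes tested. Only Ccnd1 and Ccnd2 were not called. On day 7 against day 3, Ccnd3 and E2f1 rose and Cdk4, Cdk6, Cdk2 and Cdc25a fell, which is 6 of 10 beside 41.8% of all genes (22.8% higher and 19.0% lower). On day 10 against day 7, Cdk2, Cdc25a and E2f1 fell, 3 of 10 beside 8.51% of all genes (4.41% higher and 4.10% lower). On day 10 against day 3, Ccnd3 rose and Ccne1, Ccne2, Cdk4, Cdk6, Cdk2 and Cdc25a fell, 7 of 10 beside 56.7% of all genes. Those lower were 6 of 10 beside 27.2% of all genes, and 1 was higher beside 29.5%. The median log2 change of the 10 genes was -0.30 on day 7 against day 3, -0.35 on day 10 against day 7 and -0.72 on day 10 against day 3. The medians of all genes tested were 0.00027, 0.0022 and 0.0018. The scaling of libraries (TMM) assumes that most genes do not change, so medians near 0 follow from it. With libraries scaled by their size alone, the medians of all genes tested were -0.039, -0.049 and -0.089. Without day 3 replicate 2 and day 10 replicate 3, the counts of called genes were again 6, 3 and 7. Ccne1 then took the place of Ccnd3 in the first pair and of Cdc25a in the second, and Ccnd2 that of Cdk6 in the third. The share of all genes called in that fit is not given here. These counts thus do not set the G1 genes apart from other genes.

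**Figure D1:**
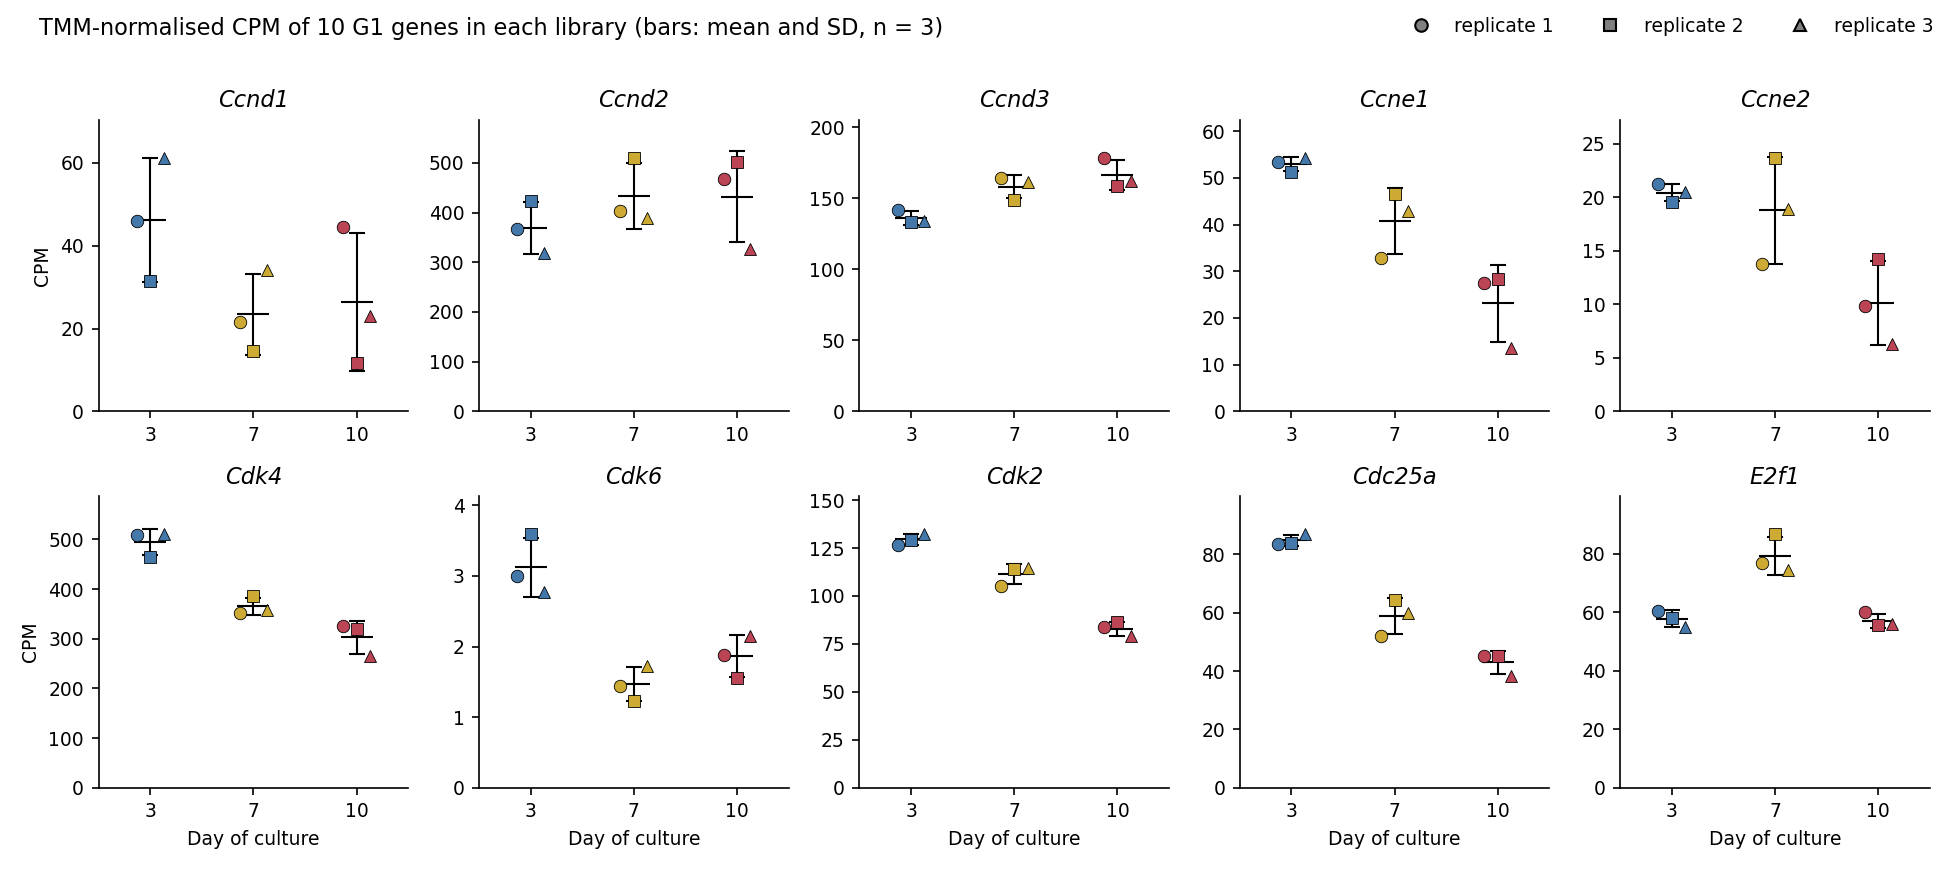
TMM-normalised CPM of each gene (vertical axis, from 0) in the 3 libraries of days 3, 7 and 10, with a marker shape for each replicate and black bars for mean and SD. Ccne1, Cdk4, Cdk2 and Cdc25a step down at each time without overlap, though neither step of Ccne1 nor the second step of Cdk4 was called. E2f1 is highest on day 7, and Ccnd1 scatters within every day.

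The D cyclins bind Cdk4 and Cdk6 and are the part of the G1 machinery that answers to growth factors. Ccnd1 (Entrez 12443, chr7:144929931-144939831, minus strand, GRCm38) had 45.9, 31.5 and 61.3 CPM on day 3, 21.6, 14.6 and 34.0 CPM on day 7, and 44.5, 11.6 and 23.0 CPM on day 10. Replicate 2 was the lowest library on each day, and the days overlapped in every pair. Its level averaged 46.2 ± 14.9, 23.4 ± 9.82 and 26.4 ± 16.7 CPM on days 3, 7 and 10 (SD, n = 3 each), a coefficient of variation of 32.2%, 41.9% and 63.5%. The log2 change was -0.98 (SE 0.48, edgeR adjusted p = 0.133) on day 7 against day 3 and -0.82 (SE 0.48, adjusted p = 0.175) on day 10 against day 3. Ccnd1 passed on day 10 against day 3 when day 10 replicate 1, the high library of that day, was left out, with a log2 change of -1.41 and an edgeR adjusted p of 0.0194. With a replicate block, Ccnd1 was called on day 7 (edgeR adjusted p = 0.036) and on day 10 (0.0411) against day 3. No label states that replicate numbers pair the samples. On the opposite strand LTO1 covers 1100 of the 4709 exon bases of Ccnd1, and it had 15.5 to 25.4 CPM. Where counting ignored strand, reads of the shared bases cannot be assigned to either gene.

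Ccnd2 (Entrez 12444, chr6:127125162-127152188, minus strand) was the D cyclin with the most counts. It had 367, 424 and 318 CPM on day 3, 404, 511 and 388 CPM on day 7, and 467, 501 and 328 CPM on day 10. All 3 days overlapped. Its log2 change on day 10 against day 3 was 0.23 (SE 0.17, edgeR adjusted p = 0.293). This became a call when day 10 replicate 3 was left out (0.39, edgeR adjusted p = 0.0349). Of its 9409 exon bases, Ccnd2 shares 372 with Gm43126 and 368 with 9330179D12Rik, both on the opposite strand.

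Ccnd3 (Entrez 12445, chr17:47505051-47599689, plus strand) had 142, 133 and 134 CPM on day 3, 164, 149 and 162 CPM on day 7, and 179, 159 and 162 CPM on day 10. Every library of day 7 and of day 10 lay above every library of day 3. Ccnd3 rose on day 10 against day 3, with means of 167 ± 10.6 CPM on day 10 and 136 ± 4.83 CPM on day 3 (log2 change 0.29, SE 0.07, edgeR adjusted p = 0.00608). Its rise on day 7 against day 3 (0.22, SE 0.07, edgeR adjusted p = 0.0341) was called in 10 of 18 settings and is close to the threshold. Leaving out day 3 replicate 1, 2 or 3 or day 7 replicate 1 or 3 gave an adjusted p of 0.0552 to 0.113. With libraries scaled by their size alone, Ccnd3 was called neither on day 7 (adjusted p = 0.137) nor on day 10 (0.0772) against day 3. Ccnd3 shares 361 of 8775 exon bases with Bysl on the opposite strand.

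Set per kb of exon, so that genes of different length can be compared, Ccnd2 supplied most D cyclin counts in each library. Its share of the 3 D cyclins was 60.6 ± 6.45%, 66.5 ± 5.83% and 64.8 ± 6.47% on days 3, 7 and 10 (SD, n = 3 each). Ccnd3 held 24.1 ± 1.20%, 26.2 ± 2.94% and 27.3 ± 3.90%. Ccnd1 held 15.3 ± 5.49%, 7.30 ± 3.32% and 7.87 ± 4.31%. The libraries of any pair of days overlapped in each of these shares. The exact two-sided permutation test gave p = 0.2 to 0.8 over the 9 comparisons of shares, but with 3 libraries against 3 it cannot go below 0.10 and so could not call a difference.

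Cdk4 and Cdk6 are the partners of the D cyclins. Cdk4 (Entrez 12567, chr10:127063535-127067288, plus strand) had 508, 465 and 510.4 CPM on day 3, 351, 385 and 359 CPM on day 7, and 325, 319 and 265 CPM on day 10. No library of a later day reached the lowest library of an earlier one. Cdk4 fell on day 7 against day 3, to 365 ± 17.9 CPM against 495 ± 25.5 CPM (log2 change -0.44, SE 0.09, edgeR adjusted p = 0.00377). It averaged 303 ± 32.9 CPM on day 10, a log2 change of -0.71 against day 3 (SE 0.09, adjusted p = 0.000124) and of -0.27 against day 7 (SE 0.09, adjusted p = 0.0991), which did not pass. Tspan31, on the other strand, shares 641 of the 3249 exon bases of Cdk4 and had 129 to 148 CPM, a narrower range than that of Cdk4.

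Cdk6 (Entrez 12571, chr5:3341004-3531008, plus strand) was scarce. Its counts were 74, 91 and 63 on day 3, 44, 30 and 44 on day 7, and 38, 39 and 61 on day 10. That is 2.99, 3.59 and 2.78 CPM on day 3, 1.45, 1.23 and 1.72 CPM on day 7, and 1.88, 1.56 and 2.15 CPM on day 10. Days 7 and 10 overlapped with each other and both lay below day 3. Cdk6 fell on day 7 against day 3 (log2 change -1.09, SE 0.22, edgeR adjusted p = 0.00303) and on day 10 against day 3 (-0.74, SE 0.22, adjusted p = 0.0141). The day 10 call was lost without day 3 replicate 2, its highest library (adjusted p = 0.0611). Between day 10 and day 7 the log2 change was 0.35 (SE 0.22, adjusted p = 0.380). The difference between its second and first step was 1.44 (SE 0.39, edgeR adjusted p = 0.0525), and this passed without day 10 replicate 2 (1.55, edgeR adjusted p = 0.0462). Cdk6 shares 368 of 13989 exon bases with Gm17590 on the opposite strand.

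Per kb of exon, Cdk6 stood far below Cdk4 in every library. The log2 ratio of Cdk6 to Cdk4 averaged -9.42 ± 0.26, -10.08 ± 0.29 and -9.46 ± 0.37 on days 3, 7 and 10 (SD, n = 3 each). It was lower on day 7 than on day 3 by a log2 difference of -0.66, with no overlap and an exact permutation p of 0.1, the smallest that 3 against 3 allows. It was higher on day 10 than on day 7 by 0.62, again with no overlap and an exact permutation p of 0.1. Over the 18 shares and ratios compared, the adjusted p of each of these differences was 0.45.

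Cdk2, the kinase of E and A cyclins, and Cdc25a, the phosphatase that activates it, were the only members called lower in all 3 pairs of days. Of all genes tested, 2.21% fell in both steps, on day 7 against day 3 and again on day 10 against day 7. Cdk2 (Entrez 12566, chr10:128697938-128705051, minus strand) had 127, 129 and 132 CPM on day 3, 105, 114 and 114 CPM on day 7, and 83.8, 86.3 and 79.0 CPM on day 10. Each day's libraries lay wholly below those of the day before it. Cdk2 averaged 111 ± 5.23 CPM on day 7 against 129 ± 2.72 CPM on day 3 (log2 change -0.22, SE 0.06, edgeR adjusted p = 0.0191). It averaged 83.0 ± 3.68 CPM on day 10, a change of -0.42 against day 7 (SE 0.06, adjusted p = 0.00703) and of -0.64 against day 3 (SE 0.06, adjusted p = 2.29e-05). The first of these calls was lost without day 3 replicate 2 (adjusted p = 0.0562), day 3 replicate 3 (0.0712) or day 7 replicate 1 (0.0693). Cdk2 overlaps Pmel by 34 exon bases, and Pmel had at most 1.98 CPM.

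Cdc25a (Entrez 12530, chr9:109875518-109893895, plus strand) had 83.7, 83.8 and 86.9 CPM on day 3, 52.1, 64.4 and 59.8 CPM on day 7, and 45.3, 45.2 and 38.3 CPM on day 10. The day 3 libraries lay close together, and no pair of days overlapped. The log2 change was -0.53 (SE 0.09, edgeR adjusted p = 0.00153) on day 7 against day 3, with means of 58.8 ± 6.19 CPM on day 7 and 84.8 ± 1.83 CPM on day 3. It was -0.45 (SE 0.10, adjusted p = 0.0208) on day 10 against day 7 and -0.98 (SE 0.10, adjusted p = 1.98e-05) on day 10 against day 3, with a day 10 mean of 43.0 ± 4.02 CPM. The fall on day 10 against day 7 did not pass without day 7 replicate 2 (adjusted p = 0.0845) or day 7 replicate 3 (0.0622).

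The promoters of these genes are shown because Cdc25a and Cdk2 held letters of an E2F site, and Ccne1, an E2F target by textbook knowledge, did not in the same window. RefSeq gave 300-base windows, 250 bases before to 50 after a start site (GRCm38.p6), for 7 of the 10 genes. Both strands were searched for TTTGGCGC, TTTCGCGC, TTTCCCGC and TTTGCCGC, and capitals mark a match. The Cdc25a window is chr9:109875329-109875628 on the plus strand, the Cdk2 window chr10:128705002-128705301 on the minus strand and the Ccne1 window chr7:38107441-38107740 on the minus strand.
Cdc25a: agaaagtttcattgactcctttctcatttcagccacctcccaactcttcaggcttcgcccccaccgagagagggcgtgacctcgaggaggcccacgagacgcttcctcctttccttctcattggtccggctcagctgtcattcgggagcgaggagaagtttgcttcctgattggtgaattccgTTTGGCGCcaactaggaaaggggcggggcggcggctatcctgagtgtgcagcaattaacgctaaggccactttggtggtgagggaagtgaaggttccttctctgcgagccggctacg
Cdk2: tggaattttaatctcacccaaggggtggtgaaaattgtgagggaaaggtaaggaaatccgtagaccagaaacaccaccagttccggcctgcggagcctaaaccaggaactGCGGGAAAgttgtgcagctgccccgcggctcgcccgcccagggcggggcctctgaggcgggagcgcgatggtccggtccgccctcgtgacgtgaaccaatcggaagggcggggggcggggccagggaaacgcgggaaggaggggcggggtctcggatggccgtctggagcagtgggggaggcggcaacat
Ccne1: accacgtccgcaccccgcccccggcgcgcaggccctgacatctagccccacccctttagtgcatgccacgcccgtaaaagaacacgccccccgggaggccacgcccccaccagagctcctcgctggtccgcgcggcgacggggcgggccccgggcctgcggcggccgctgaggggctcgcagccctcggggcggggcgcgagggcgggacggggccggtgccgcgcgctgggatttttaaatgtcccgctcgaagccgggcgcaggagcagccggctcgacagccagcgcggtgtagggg
In Cdc25a the letters TTTGGCGC stood on the gene's own strand, 67 to 60 bases before the start site. In Cdk2 the letters TTTCCCGC stood on the other strand, 140 to 133 bases before it, and read there as GCGGGAAA. A match was thus found in 2 of 7 members, beside 2.6% of the 27025 mouse genes with a window (704 genes). The letters TTTGAA, a site used by genes of late cell cycle, were in none of the 7 members' windows and in 20.2% of all genes. The RefSeq start site used for Cdc25a lies 61 bases inside the gene. Those used for E2f1 and Cdk6 lie 466 and 2889 bases inside, so these windows are not the most upstream promoter. A match describes letters only, and no match says nothing of a factor's binding elsewhere.

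The E cyclins, which drive Cdk2 at the entry to DNA synthesis, fell on day 10 against day 3. Ccne1 (Entrez 12447, chr7:38097984-38107490, minus strand) had 53.4, 51.3 and 54.4 CPM on day 3, 32.8, 46.5 and 42.9 CPM on day 7, and 27.5, 28.3 and 13.6 CPM on day 10. The days did not overlap, and the libraries of days 7 and 10 were far more spread than those of day 3. Ccne1 averaged 23.2 ± 8.29 CPM on day 10 against 53.0 ± 1.58 CPM on day 3 (log2 change -1.20, SE 0.25, edgeR adjusted p = 0.00241), the largest fall of the 10 genes in this pair. With a mean of 40.8 ± 7.12 CPM on day 7, neither step passed (-0.38, adjusted p = 0.232, and -0.82, adjusted p = 0.0693). Without day 10 replicate 3, the lowest library, both steps passed (adjusted p = 0.0182 for day 7 against day 3, and a change of -0.54 with adjusted p = 0.0261 for day 10 against day 7).

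Ccne2 (Entrez 12448, chr4:11190433-11204779, plus strand) had 21.2, 19.6 and 20.5 CPM on day 3, 13.7, 23.7 and 18.9 CPM on day 7, and 9.87, 14.2 and 6.32 CPM on day 10. Day 7 overlapped both other days, and day 10 lay below day 3 throughout. Ccne2 averaged 10.1 ± 3.95 CPM on day 10 against 20.4 ± 0.797 CPM on day 3 (log2 change -1.01, SE 0.28, edgeR adjusted p = 0.011). On day 10 against day 7 the change was -0.89 (SE 0.28, adjusted p = 0.0767), which passed without day 10 replicate 2 (-1.22, adjusted p = 0.025). Ccne2 shares 609 of 3495 exon bases with Ints8 on the other strand, which was the more abundant of the pair at 55.8 to 91.9 CPM. The log2 ratio of Ccne2 to Ccne1 per kb averaged -1.77 ± 0.04, -1.53 ± 0.15 and -1.59 ± 0.25 on days 3, 7 and 10. The exact permutation p was 0.1 for day 7 against day 3, the smallest possible, and 0.8 and 0.4 for the other pairs.

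**Figure D2:**
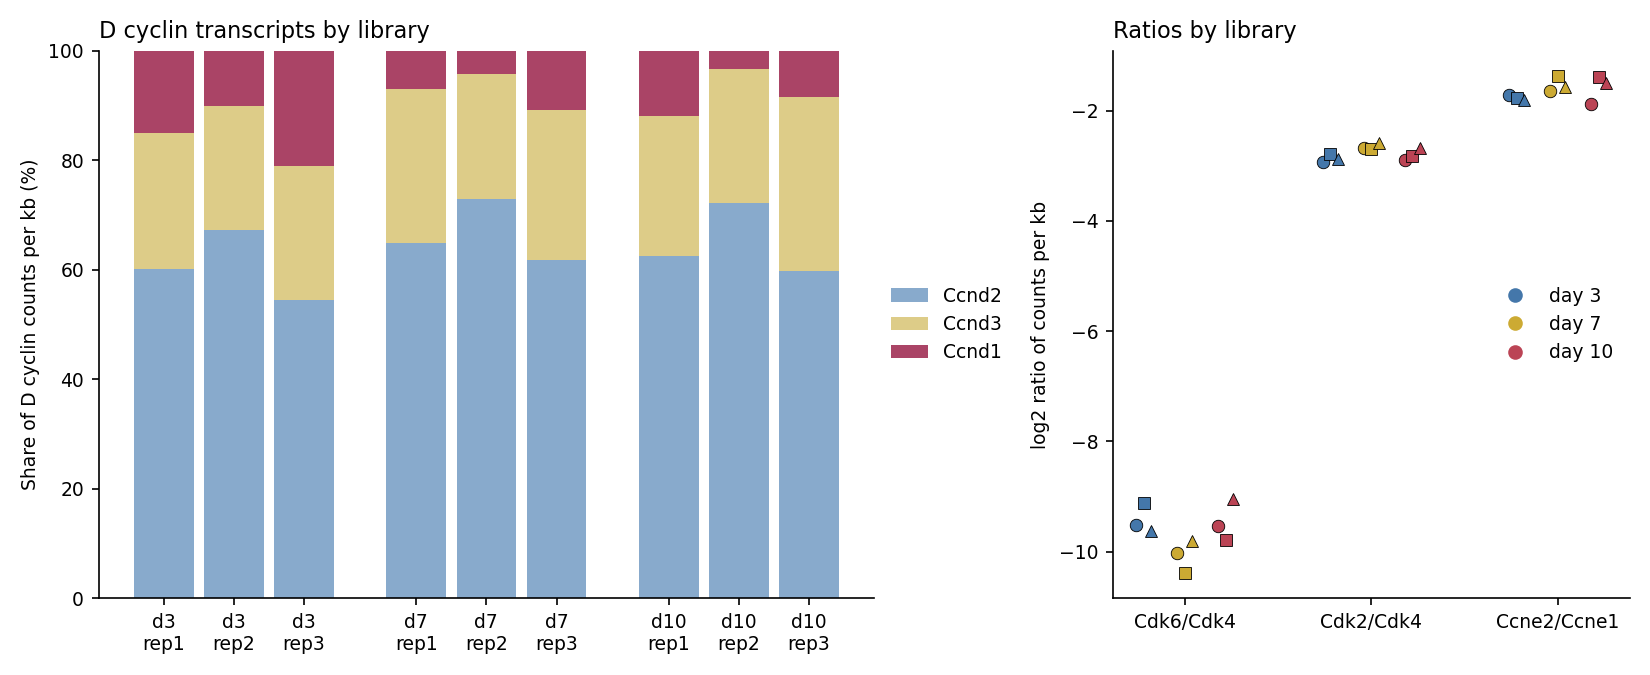
Left, the share of Ccnd2, Ccnd3 and Ccnd1 in their summed counts per kb (%, from 0) in each of the 9 libraries. Right, log2 ratios of counts per kb in each library, coloured by day, with circles, squares and triangles for replicates 1, 2 and 3; Ccnd2 is the largest share in every bar, and Cdk6 lies about 10 log2 units below Cdk4.

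E2f1, the activator that opens the genes of DNA synthesis, had a course of its own. E2f1 (Entrez 13555, chr2:154559400-154569892, minus strand) had 60.5, 58.2 and 54.9 CPM on day 3, 76.8, 86.7 and 74.6 CPM on day 7, and 60.0, 55.7 and 55.9 CPM on day 10. All 3 day 7 libraries lay above the other 6, and days 3 and 10 overlapped. E2f1 rose on day 7 against day 3, to 79.4 ± 6.46 CPM against 57.9 ± 2.83 CPM (log2 change 0.46, SE 0.08, edgeR adjusted p = 0.0012). It fell on day 10 against day 7, to 57.2 ± 2.39 CPM (-0.47, SE 0.08, adjusted p = 0.00924). The change of day 10 against day 3 was -0.02 (SE 0.08, adjusted p = 0.864).

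The second step of E2f1 differed from its first by -0.93 (SE 0.13, edgeR adjusted p = 0.00283). E2f1 was the only one of the 10 genes called in this test, beside 8.03% of all genes (2.06% with a positive and 5.96% with a negative difference). A rise on day 7 followed by a fall on day 10, both called, was found in 76 genes, 0.509% of those tested. The 3 calls of E2f1 held in every setting tried, with the highest adjusted p at 0.0161 for the difference between steps and 0.0455 for the fall on day 10. Day 7 spheres were sampled 4 days after a split and day 10 spheres 3 days after one. Day 3 spheres were also sampled after 3 days, counted from the start of culture rather than from a split. In comparisons with day 7, time in culture and time since plating or split thus cannot be told apart.

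**Figure D3:**
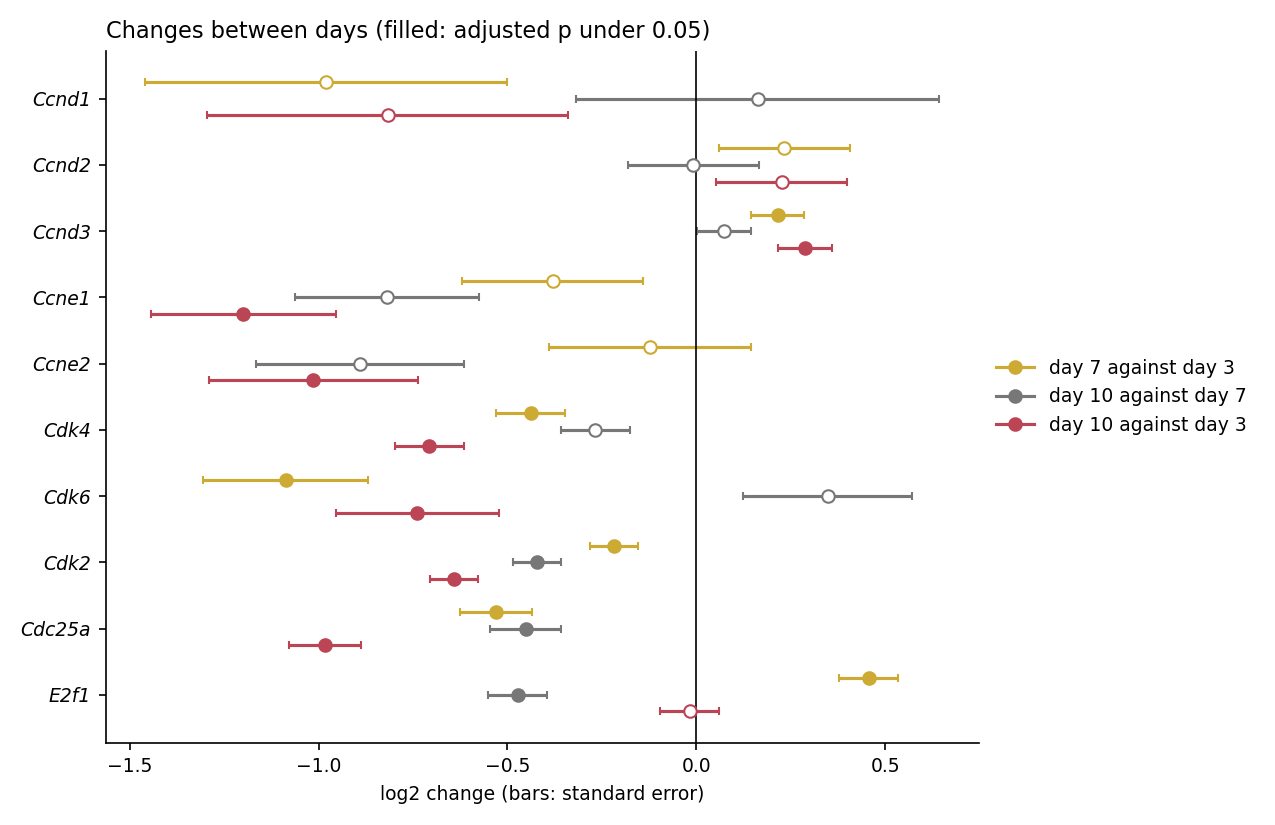
Log2 change of each gene (horizontal axis, with standard error) on day 7 against day 3, day 10 against day 7 and day 10 against day 3; filled points have an edgeR adjusted p under 0.05. E2f1 has changes of 0.46 and -0.47 in the 2 steps, while Cdk2 and Cdc25a are filled and below 0 in all 3 comparisons.

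Counted by overlap of libraries rather than by the test, 7, 5 and 7 of the 10 genes had no overlap on day 7 against day 3, day 10 against day 7 and day 10 against day 3, beside 60.0%, 26.0% and 64.4% of all genes. Set in order of CPM per kb of exon on day 3, Cdk4 (152) was followed by Ccnd2 (39.3), Cdk2 (20.8), Ccne1 (19.9), E2f1 (18.3), Ccnd3 (15.5), Cdc25a (10.6), Ccnd1 (9.82), Ccne2 (5.84) and Cdk6 (0.223). The libraries of Cdk2 overlapped those of Ccne1, and those of Cdc25a overlapped those of Ccnd1. On day 10 the order was Cdk4 (93.3), Ccnd2 (45.9), Ccnd3 (19.0), E2f1 (18.1), Cdk2 (13.3), Ccne1 (8.70), Ccnd1 (5.60), Cdc25a (5.35), Ccne2 (2.90) and Cdk6 (0.133). Ccnd3 and E2f1 overlapped there, and so did Ccne1 with Ccnd1 and Ccnd1 with Cdc25a. Ccne1 thus stood 4th on day 3 and 6th on day 10, and Ccnd3 stood 6th on day 3 and 3rd on day 10.

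Across the 9 libraries, Cdc25a followed Cdk4 (Pearson r = 0.98 on log2 CPM) and Cdk2 (r = 0.97), and Ccne2 followed Ccne1 (r = 0.96). Ccnd3 ran against Cdc25a (r = -0.87), and E2f1 was nearly unrelated to it (r = 0.01). These correlations share the 9 libraries and their 3 days and only describe them. Among the 9714 others whose average reached 10 CPM, those most like Ccne1 were Ckap2l, Knstrn and Racgap1 (r = 0.998 to 0.999). The genes most like Cdc25a were Nup107, Nepro and Chaf1a (r = 0.994 to 0.995), and those most like Cdk4 were Nif3l1, Hmgb3 and Ddx39b (r = 0.995 to 0.996). For Cdk2 they were Tmem150c, Cdh2 and Tmem186 (r = 0.989 to 0.992), and for Ccne2 Xrcc2, Cenpq and Rab3ip (r = 0.980 to 0.982). E2f1 was most like Cd36, Plcl1 and Aqp1 (r = 0.961 to 0.971). The nearest genes were Pde4a, Mtres1 and Ak1 for Ccnd3 (r = 0.977 to 0.979), Fryl, Khdc4 and Tchp for Ccnd1 (r = 0.931 to 0.965), Bmi1, Meox2 and Arf6 for Ccnd2 (r = 0.925 to 0.963) and AW554918, Gigyf2 and Bmp2k for Cdk6 (r = 0.977 to 0.982).

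Genes around E2f1 in this pathway moved in both directions. The list of pocket proteins, other E2F factors and parts of the DREAM complex had 18 tested genes. On day 7 against day 3, 2 rose and 3 fell, no larger a share than the 22.8% and 19.0% of all genes. On day 10 against day 3, 3 rose and 11 fell (median log2 change -0.45), beside 29.5% and 27.2% of all genes. Without day 10 replicate 3, the falls on day 7 against day 3 were 6, and the share of all genes in that fit is not given here. Those that rose on day 7 were the pocket proteins Rb1, which averaged 16.0 CPM on day 7 against 10.3 CPM on day 3, and Rbl2, with 50.6 CPM on day 7 against 37.9 CPM on day 3. Rb1 stayed at 16.1 CPM on day 10 (log2 change 0.65 against day 3, SE 0.10, edgeR adjusted p = 0.000275). No other E2F gene was called higher on day 7, and E2f3, E2f4 and E2f6 fell. E2f2, like E2f1 an activator, averaged 17.6, 12.3 and 5.27 CPM on days 3, 7 and 10 (-1.75 on day 10 against day 3, SE 0.27, adjusted p = 0.00039). Lin9, a scaffold of the DREAM complex, averaged 12.7 CPM on day 10 against 24.3 CPM on day 3 (-0.93, SE 0.16, adjusted p = 0.000651).

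All 20 E2F target genes of S phase fell on day 10 against day 3, with a median log2 change of -1.16, beside 27.2% of all genes called lower. The helicase subunit Mcm7 averaged 70.8 CPM on day 10 against 159 CPM on day 3 (-1.17, SE 0.09, edgeR adjusted p = 3.82e-06). Mcm4 averaged 126 CPM on day 10 against 248 CPM on day 3 (-0.98, SE 0.09, adjusted p = 1.47e-05). None of the 20 was called higher on day 7 against day 3, when E2f1 rose, beside 22.8% of all genes. Called lower in this pair were 9, beside 19.0% of all genes. That count was 14 without day 10 replicate 3. On day 10 against day 7, 13 fell, beside 4.10% of all genes. This count was 18 with DESeq2 and 0 in a fit of only these 2 days. It was 1 without day 7 replicate 2, 7 without day 7 replicate 3 and 8 without day 3 replicate 1. For these other fits the share of all genes called is not given here. Their counts thus do not set E2F targets apart from other genes.

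Of the 10 cyclins, kinases and phosphatases of later phases, 9 fell and Cdc25b rose on day 10 against day 3 (median log2 change -1.30), beside 27.2% of all genes lower and 29.5% higher. Cdc25b, a relative of Cdc25a that acts at mitosis, averaged 42.5, 68.5 and 59.7 CPM on days 3, 7 and 10 (0.49 on day 10 against day 3, SE 0.13, edgeR adjusted p = 0.00748). Ccna1, a cyclin best known from germ cells, averaged 0.448 CPM on day 10 against 8.64 CPM on day 3 (-4.28, SE 0.32, adjusted p = 3.7e-06). Wee1, the kinase that places the phosphates Cdc25 enzymes remove, averaged 37.3 CPM on day 10 against 75.6 CPM on day 3 (-1.02, SE 0.09, adjusted p = 1.32e-05).

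Most CDK inhibitors, proteins that block these kinases, rose on day 7 and on day 10 against day 3. Of 7 tested, 6 rose on day 7 against day 3, beside 22.8% of all genes, and 5 rose on day 10 against day 3, beside 29.5%. None was called lower in these pairs, and on day 10 against day 7 none of the 7 was called in either direction. Cdkn1c, the inhibitor with the highest CPM, averaged 400, 478 and 434 CPM on days 3, 7 and 10, and Cdkn2d 21.6, 29.1 and 22.5 CPM. Cdkn2b, an inhibitor of Cdk4 and Cdk6, averaged 18.1 CPM on day 10 against 1.04 CPM on day 3, and Cdkn1a, an inhibitor of Cdk2, averaged 95.1 CPM on day 10 against 14.2 CPM on day 3.

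Among 12 genes of kinase activation and cyclin turnover, 2 rose and 6 fell on day 10 against day 3 (median log2 change -0.20), beside 29.5% and 27.2% of all genes. Skp2, which marks the inhibitor Cdkn1b for breakdown, averaged 52.1 CPM on day 10 against 138 CPM on day 3 (-1.40, SE 0.16, edgeR adjusted p = 7.62e-05). Fbxw7, which marks cyclin E for breakdown, averaged 19.1 CPM on day 10 against 49.7 CPM on day 3 (-1.38, SE 0.15, adjusted p = 3.82e-05). Fbxo4, linked to the breakdown of cyclin D1, averaged 19.5 CPM on day 10 against 9.16 CPM on day 3 (1.09, SE 0.12, adjusted p = 5.53e-05). Cdk7, the kinase that activates Cdk2 and Cdk4, averaged 93.2 CPM on day 10 against 72.5 CPM on day 3 (0.36, SE 0.11, adjusted p = 0.0136).

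**Figure D4:**
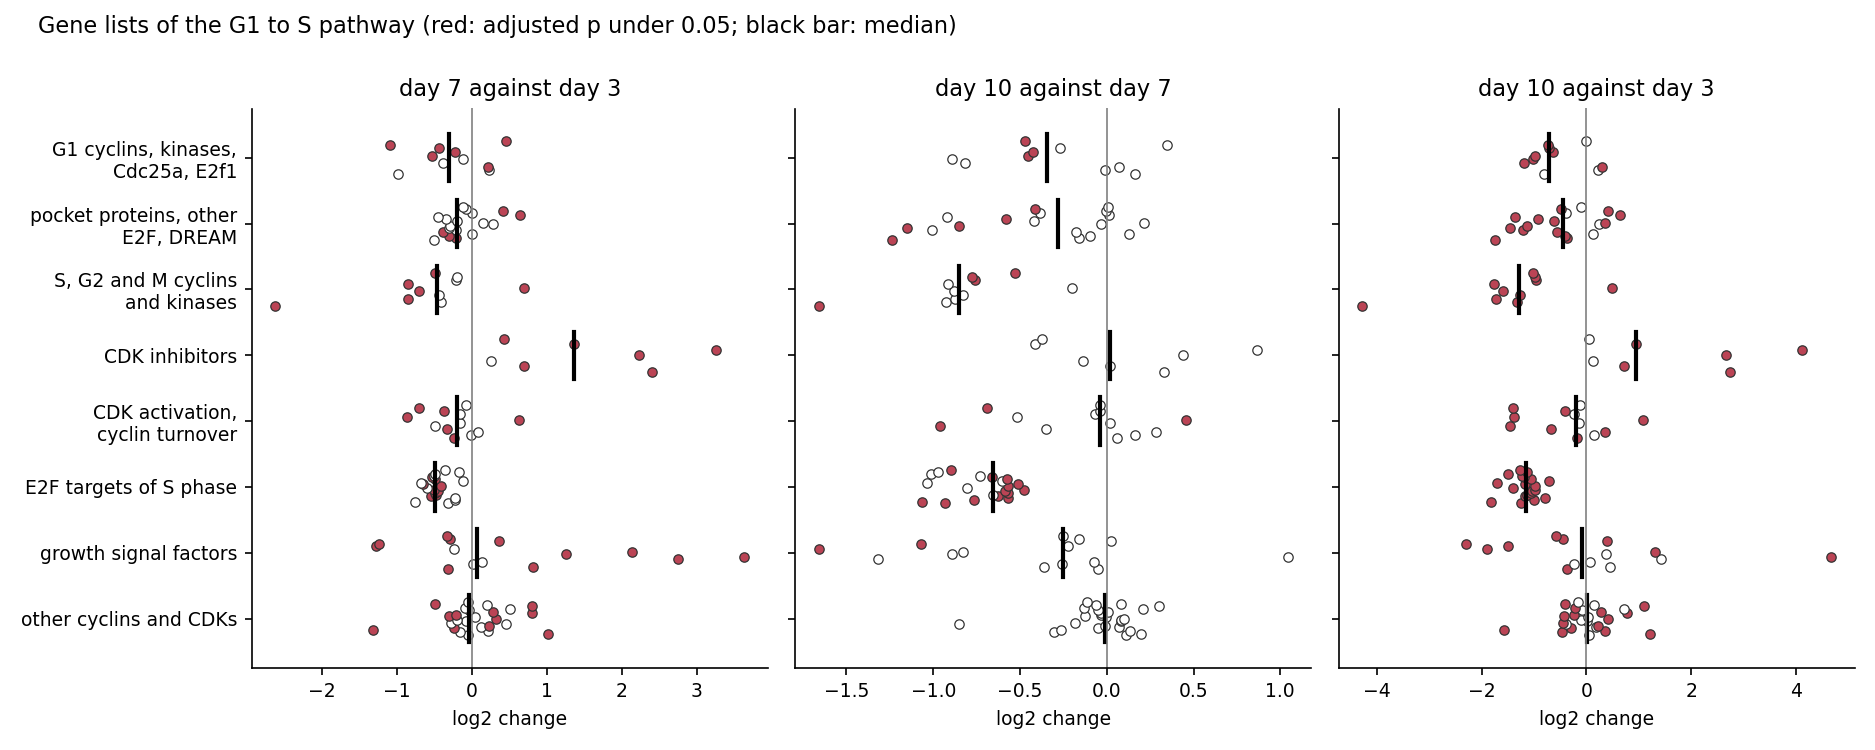
Log2 change of every tested gene of the 10 G1 genes and 7 pathway lists in the 3 comparisons, with a horizontal scale of its own in each panel; red points have an edgeR adjusted p under 0.05 and the black bar is the median. In day 10 against day 3, all 20 E2F targets lie below 0 (median -1.16), while the CDK inhibitors lie at or above 0 (median 0.95).

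Markers of several cell types moved with the days along which the G1 genes changed. The 8 erythroid markers summed to 1060 to 1264 CPM on day 3, 4.84 to 6.50 CPM on day 7 and 0.423 to 1.08 CPM on day 10. The 8 neuronal and glial markers summed to 120 to 155, 17.7 to 23.1 and 13.9 to 15.7 CPM. The 6 endothelial markers summed to 73.1 to 93.8 CPM on day 3, 77.1 to 166 CPM on day 7 and 12.002 to 32.3 CPM on day 10. Kdr made up most of that sum on days 3 and 7, with 51.2 to 71.5 CPM on day 3, 53.7 to 151 CPM on day 7 and 6.35 to 24.5 CPM on day 10. Each of the other 5 (Pecam1, Cdh5, Tek, Erg and Tie1) averaged at most 7.42 CPM on any day. The 5 mesothelial markers summed to 68.9 to 89.8, 37.5 to 40.7 and 18.0 to 28.6 CPM. Wt1 made up most of that sum, with means of 64.4, 35.8 and 20.0 CPM. Aldh1a2 and Lrrn4 averaged at most 8.57 CPM on any day, and Msln and Upk3b at most 0.0715 CPM. The 5 smooth muscle markers summed to 152 to 168, 358 to 503 and 315 to 707 CPM. Acta2 and Tagln made up most of that sum, and Myh11, Cnn1 and Actg2 averaged at most 10.1 CPM on any day. The 5 leukocyte markers stayed between 2.40 and 7.80 CPM. The part of these cell types in the levels of the G1 genes was not tested.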

How the data were processed

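The deposited data are 1 table of raw counts by Entrez gene, in whole numbers and not normalised. Per the submitters' processing notes, counting was done with featureCounts on the mouse build mm10. The sources used here do not give the aligner, the gene annotation, the strand setting or the handling of reads that map to several places, so values of genes that share exon bases are uncertain. Each of the 9 count columns bore the name of 1 sample. Of 27179 IDs, 25275 took a name from RefSeq and 18 from GENCODE M21.

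Genes were kept by filterByExpr (14940), scaled by TMM factors and tested with the robust quasi-likelihood F test of edgeR 4.0.16 in R 4.3.3 over all 9 libraries, with Benjamini-Hochberg adjustment over all genes tested. The common biological coefficient of variation was 0.146. A gene was called at an adjusted p under 0.05. Adjusted p-values without another name are from this test. Standard errors come from the log2 change and the F statistic (size of the change over the root of F). The difference between steps is the change of day 10 against day 7 minus that of day 7 against day 3. Levels are CPM scaled by library size and TMM factor. Levels between genes were divided by the merged exon length of GENCODE M21. Shares and ratios were compared by exact permutation over libraries, and likeness is Pearson's r of log2 CPM with a prior count of 2. Libraries of a day differed by a chi-square per degree of freedom of 8.05 to 126.5, so none was counted as a repeat of another. Floors of 3 counts cover counting error only. The test was tried on simulated counts first.

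The text names all 10 G1 genes, from each pathway list the 2 genes of lowest adjusted p per direction on day 10 against day 3, and the 3 genes most like each G1 gene. E2f3, E2f4, E2f6, Cdkn1c, Cdkn2d and single marker genes were named after their values were seen. The genes and lists were chosen with earlier results of these data known. Alternatives were DESeq2 1.42.0, other scalings and filters, fits of only the days compared, a replicate block and left-out libraries.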

Additional observations from a re-analysis of the deposited data

Results flagged for a closer look

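E2f1 differed between the steps. It rose on day 7 against day 3 by a log2 change of 0.46 and fell by 0.47 on day 10 against day 7, and the test of the difference between these changes gave -0.93 (SE 0.13, edgeR adjusted p = 0.00283). All 3 libraries of day 7 lay above all 6 others. No cause was tested.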

How the results depend on the processing

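The number of G1 genes called moved with the test and the libraries. The share of all genes called under each setting is not given here, so these counts do not set G1 genes apart from other genes. On day 10 against day 7 it was 5 with DESeq2 in place of 3, with Ccne1 and Ccne2 added. The number whose steps differed was 2 with upper-quartile scaling, a filter of 1 CPM in 3 libraries or DESeq2, where Cdk6 joined E2f1. With 1 library left out at a time, the calls ranged from 4 to 7 on day 7 against day 3, 2 to 4 on day 10 against day 7, 6 to 8 on day 10 against day 3, 7 to 8 for any difference and 1 to 2 for the difference between steps.

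Of 670 alternative values of 40 log2 changes, 622 kept direction and side of the threshold, 17 passed it anew, 18 no longer passed and 13 changed sign. The sign changes were in changes that were not called. With upper-quartile scaling Ccnd2 was 0.0080 on day 10 against day 7. Without day 3 replicate 2 and day 10 replicate 3 it was 0.16, and E2f1 was 0.0039 on day 10 against day 3. With 1 library left out, the changes ran from -0.32 to 0.060 for Ccne2 on day 7 against day 3, from -0.43 to 0.53 for Ccnd1 and from -0.13 to 0.16 for Ccnd2 on day 10 against day 7, and from -0.055 to 0.014 for E2f1 on day 10 against day 3. The difference between steps ran from -0.39 to 0.024 for Ccnd2 and from -0.080 to 0.22 for Cdc25a. The causes were not tested.

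The data do not settle whether replicate numbers pair the samples, and no pairing was assumed: 5 of 9 same-numbered pairs deviated together at r over 0.1, and 5 of 9 correlated best with their own number. With a replicate block, 7, 3 and 8 G1 genes were called in the 3 pairs of days, 9 for any difference and 1 for the difference between steps. The share of all genes called with the block is likewise not given. Ccnd1 was then called on day 7 (-1.01, edgeR adjusted p = 0.036) and on day 10 (-0.91, adjusted p = 0.0411) against day 3.

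The share of Ccnd2 among D cyclins differed by 4.23 percentage points on day 10 against day 3, by 0.58 to 7.58 with 1 library left out and by 2.04 without division by length. With 30 to 91 counts, Cdk6 is the gene most limited by depth. Counts for pathway lists under these settings were added after seeing the data.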

Other observations

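Among 14 growth signal factors upstream of D cyclins that could be tested, 6 rose and 5 fell on day 7 against day 3, beside 22.8% and 19.0% of all genes tested. Without day 3 replicate 2, 3 rose and 3 fell, and without day 7 replicate 1, 3 rose and 4 fell. The share of all genes called in these 2 fits is not given here. On day 10 against day 3, 3 of the 14 rose and 6 fell (median log2 change -0.09), beside 29.5% and 27.2% of all genes. Myc averaged 59.6, 24.5 and 21.01 CPM on days 3, 7 and 10 (log2 change -1.50 on day 10 against day 3, SE 0.11, edgeR adjusted p = 2.79e-06). Mycn averaged 24.3, 10.4 and 4.89 CPM (-2.31, SE 0.27, adjusted p = 8.42e-05). Junb, a partner in the AP-1 factor, averaged 21.5, 94.6 and 53.5 CPM (1.31, SE 0.26, adjusted p = 0.00206). Its second step differed from its first by -2.96. Gli1, a target of Hedgehog signals, had 108 counts on day 10 against 4 on day 3 over the 3 libraries of each day, a ratio of 26.7 (95% counting interval 10.1 to 99.9, which covers counting error only).

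Of 25 cyclins and kinases of transcription and other roles, 7 rose and 8 fell on day 10 against day 3, with a median log2 change of 0.0029. These shares are close to the 29.5% higher and 27.2% lower of all genes. Ccng1, a cyclin known as a p53 target, averaged 71.1, 143 and 164 CPM on days 3, 7 and 10 (1.21, SE 0.13, edgeR adjusted p = 3.61e-05). Cdk14 averaged 91.8, 160.1 and 156 CPM (0.77, SE 0.06, adjusted p = 5.5e-06). Ccnj averaged 25.1, 10.1 and 8.38 CPM (-1.58, SE 0.11, adjusted p = 3.29e-06), and Cdk8, a kinase of the Mediator complex, averaged 46.4, 33.0 and 35.0 CPM (-0.41, SE 0.08, adjusted p = 0.00152).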
